A study of Mus musculus with 2 samples.

Results

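Lysosomal proteases and lysozymes were examined as a set of 10 genes out of the 55536 genes in the deposited tables. The genes were chosen by symbol: the lysozymes Lyz1 and Lyz2, the cathepsins Ctsb, Ctsd, Ctsl, Ctss and Ctsz, the protease Lgmn, and the membrane proteins Cd68 and Lamp1. All 10 symbols matched a protein-coding gene, and the rule uses no measured value. The RNA was nuclear and came from primary macrophages grown from the bone marrow of C57BL/6J mice. The cells received Lipid A, the part of bacterial lipopolysaccharide that TLR4 senses, at 100 ng/ml for 12 h, were kept without it for 12 h after washing, and received 100 ng/ml again for 120 min. This 1 condition had 2 biological replicates, both under the same donor label, and ribosomal RNA had been depleted. Age and sex of the animals were not collected, the fraction is labelled both nucleus and nucleoplasmic, and there was no untreated group, so no effect of Lipid A can be read from these data.

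Lysosomes are acid compartments in which hydrolases break down proteins, lipids, sugars and bacterial walls. The proteases are made as inactive precursors, are sorted to the lysosome by mannose 6-phosphate receptors and other carriers, and mature there. Macrophages are known for abundant lysosomes, since they digest what they engulf and cut antigens for display on MHC class II molecules. Lysozyme cleaves the peptidoglycan of bacterial cell walls. In the mouse it is encoded by neighbouring genes, with Lyz2 known as the macrophage form and Lyz1 as the form of intestinal Paneth cells.

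The gene tables assigned 28450309 expected counts to genes in replicate 1 and 16940220 in replicate 2. By the labels, 1 µg of RNA went into replicate 1 and 500 ng into replicate 2, so RNA input and replicate cannot be told apart. Mitochondrial genes took 4.15% of the counts in replicate 1 and 10.3% in replicate 2, and short structural RNAs took 72.9% and 53.9% of the TPM (a gene's share of all transcripts after correction for length). A TPM of any other gene therefore moves with the short RNAs, and levels were also read in TPM rescaled to the same total after short and mitochondrial RNAs had been left out. All 8 macrophage markers passed TPM 1 in each library, led by Adgre1, which encodes F4/80, at 537 TPM in replicate 1 and 749 TPM in replicate 2. No neutrophil, B cell, fibroblast, osteoclast or Paneth cell marker reached TPM 1 in both libraries. Of the dendritic cell markers Ccr7 reached it in replicate 1 (1.29 TPM, and 0.62 TPM in replicate 2), and Cd4 alone of 4 T cell markers passed in both (13.9 and 13.5 TPM). The T cell marker Cd3d had 0.03 and 0 TPM in the gene tables but 1.00 and 5.57 TPM in a second set of transcript tables, made by another quantification tool and called the second tool here.

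The lysozyme pair shows how close some of these sequences are. Lyz2 lies on chromosome 10 (117277331 to 117282321, minus strand, mm10) and Lyz1 on the same strand at 117287797 to 117292868, with 5475 bases between them. Their coding sequences are both 444 bases long and differ at 22 positions, an identity of 95.0%, and their longest identical coding run is 118 bases. Bases 61 to 120 of the coding sequence, shown because 9 of the 22 differences fall there, read as follows, with the differing bases in capitals. The Lyz2 window lies at chr10:117282123-117282182 and the Lyz1 window at chr10:117292719-117292778, both minus strand, GENCODE M21 transcripts on mm10.
Lyz2: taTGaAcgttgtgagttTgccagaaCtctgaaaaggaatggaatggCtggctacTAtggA
Lyz1: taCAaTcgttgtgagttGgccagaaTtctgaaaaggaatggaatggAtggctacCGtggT
Between the differing bases the windows are letter for letter the same. Of all 31-base words in the annotated transcript, 34.2% of those of Lyz1 and 32.8% of those of Lyz2 occur in the other gene. A read that lies wholly within a stretch shared by both genes cannot be placed by sequence alone. A read that also reaches a differing base can be, so these shares are not shares of reads.

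Transcripts of 9 of the 10 genes were present in nuclear RNA at TPM 1 or more in both libraries, a level that 18.8% of all genes and 39.6% of protein-coding genes reached. Lyz1 was the exception. In rescaled TPM Lyz1 had 1.88 in replicate 1 and 1.55 in replicate 2, so all 10 genes passed 1 on that scale. How much cytoplasmic RNA the fraction held was not measured. In both libraries 8 of the 10 reached TPM 100, as did 1.06% of protein-coding genes. The number was 9 in rescaled TPM and 7 by the second tool, and the 1.06% is for deposited TPM only. The median of the 10 genes was 584 TPM in replicate 1 and 464 TPM in replicate 2, beside 6.53 and 9.53 TPM for the median protein-coding gene detected in both. Together the 10 genes took 659455 counts in replicate 1 and 262918 in replicate 2. These are 2.32% of the first library, with a 95% Wilson interval of 2.31 to 2.32, and 1.55% of the other, with an interval of 1.55 to 1.56. In TPM they summed to 6906 in replicate 1 and 6412 in replicate 2, a mean of 6659 ± 350 (SD, n = 2). The second tool gave sums of 3205 and 3963 TPM. Rescaled TPM gave 28860 and 19913.

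The order of the 10 levels in TPM was the same in replicate 1 and replicate 2, and the second tool gave that order too in both libraries. From the top it ran Ctsb, Ctsd, Lyz2, Ctss, Lgmn, Ctsz, Lamp1, Cd68, Ctsl and Lyz1. In the gene tables the values of neighbours in this order did not interleave across the libraries, except those of Lgmn and Ctsz. After rescaling, every neighbouring pair from Ctsb down to Ctsz interleaved, with replicate 1 above replicate 2 for all 10 genes. Rescaling multiplies these genes by the same factor within a library, so the order and the ratios within each library are unchanged. The interleaving thus reflects the offset between the libraries. The lower steps, from Ctsz to Lamp1, Cd68, Ctsl and Lyz1, stayed apart on both scales.

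**Figure D1:**
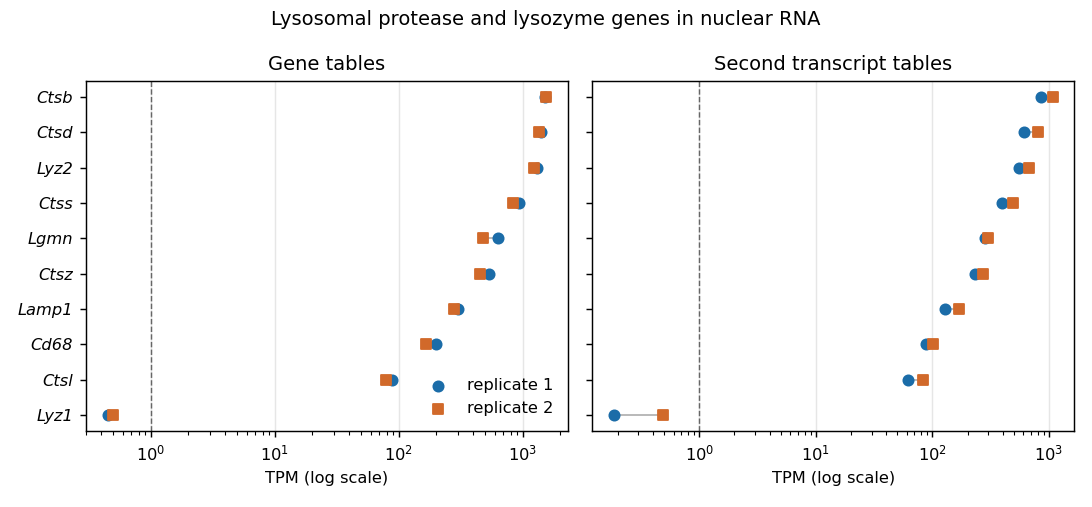
TPM of the 10 genes on a log axis in replicate 1 (circles) and replicate 2 (squares), from the gene tables on the left and the second tool on the right; the dashed line marks TPM 1. The order is the same in all 4 sets of values, from Ctsb at 1521 and 1546 TPM in the gene tables to Lyz1 at 0.45 and 0.50 TPM.

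Among the cysteine cathepsins, Ctsb was the highest of all 10 genes. It encodes cathepsin B, which can cut inside proteins and also trims their carboxyl ends, and lies on chromosome 14 (63122462 to 63145923, plus strand). Ctsb had 285466 counts and 1521 TPM in replicate 1, and 116496 counts and 1546 TPM in replicate 2. That placed it 13th of 22028 protein-coding genes in replicate 1 and 14th in replicate 2. The tables' credibility interval, which belongs to the posterior mean TPM and not to the TPM itself, ran from 1479 to 1509 in replicate 1 and from 1446 to 1492 in replicate 2. The intervals overlapped between the libraries for Ctsb, and the deposited TPM lay above both. Ctsb shares 774 exonic bases with Fdft1 on the opposite strand, which had 2.16 and 3.11 TPM.

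Ctss encodes cathepsin S, the protease that removes the invariant chain from MHC class II molecules in antigen-presenting cells. On chromosome 3 (95526786 to 95556403, plus strand), it had 928 TPM in replicate 1 and 830 TPM in replicate 2, 879 ± 69.2 (SD, n = 2). Ctsz, the carboxypeptidase cathepsin Z (chromosome 2, 174427493 to 174439039, minus strand), had 537 TPM in replicate 1 and 454 TPM in replicate 2. Ctsl was the lowest of the detected genes, at 89.1 and 79.0 TPM, and encodes cathepsin L, an endopeptidase (chromosome 13, 64359337 to 64370890, minus strand). The 4 cysteine cathepsins thus spanned 18.3-fold in mean TPM. By the second tool they spanned 13.4-fold, and the step from Cd68 to Ctsl, 2.23-fold and 2.12-fold in the gene tables, was 1.44-fold and 1.22-fold.

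Ctsd, the aspartic protease cathepsin D (chromosome 7, 142375911 to 142388038, minus strand), had 1400 TPM in replicate 1 and 1351 TPM in replicate 2. Part of its sequence also belongs to another gene model. Gm49369, annotated as protein-coding on the same strand (142371096 to 142382667), shares 808 of its 1023 exonic bases with the 2351 of Ctsd. The gene tables gave Gm49369 395 TPM in replicate 1 and 494 TPM in replicate 2, which is 22.0% and 26.8% of the summed TPM of the pair. The second tool put that share at 11.8% in replicate 1 and 24.3% in replicate 2. How the reads divide between the pair is uncertain, and with both added the level was 1795 TPM in replicate 1 and 1845 TPM in replicate 2. Ctsd would then stand above Ctsb in the gene tables. By the second tool the sum was 691 TPM in replicate 1 and 1052 TPM in replicate 2, still below the 856 and 1071 TPM of Ctsb.

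Lgmn encodes legumain, which cuts after asparagine and processes other lysosomal proteases, and on scaled counts and in the gene tables' TPM it was the gene of the 10 that differed most between the libraries. By the second tool's TPM it differed least, with 282 TPM in replicate 1 and 301 TPM in replicate 2. All 10 genes were lower in replicate 1 on that scale. On the second tool's scaled counts Lgmn again had the largest log2 ratio of the 10, at 1.34. The gene lies on chromosome 12 (102394084 to 102439813, minus strand). Lgmn had 51952 counts and 630 TPM in replicate 1, and 16279 counts and 475 TPM in replicate 2. Its level was 552 ± 110 TPM (SD, n = 2), the widest SD of the 10. Its value in replicate 2 lay below that of Ctsz in replicate 1, so the values of the 2 genes overlap across the libraries. Within a library Lgmn was above Ctsz, 1.17-fold in replicate 1 and 1.05-fold in replicate 2. By the second tool it was above Ctsz 1.21-fold and 1.10-fold. With 2 libraries their order was not tested.

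Lyz2 had 69270 counts and 1300 TPM in replicate 1, and 28332 counts and 1229 TPM in replicate 2, a mean of 1265 ± 50.4 (SD, n = 2). Lyz1 had 23.0 counts in replicate 1 and 11.0 in replicate 2. These are 0.45 and 0.50 TPM, with credibility intervals of 0.285 to 0.652 and 0.247 to 0.818. Lyz1 was thus close to 0 in both libraries while Lyz2 stood 17th and 21st among protein-coding genes. Of the counts on both lysozyme genes, Lyz1 took 0.0332% in replicate 1 and 0.0388% in replicate 2. The 95% Wilson intervals, 0.0221 to 0.0498 and 0.0217 to 0.0695, overlapped. The second tool gave 0.0319% and 0.0680%. Whether the Lyz1 counts are Lyz2 reads that could not be placed was not tested.

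Other members of the lysozyme family were at or near 0. None of the 8 lysozyme-like genes listed reached TPM 1, with 2 counts in replicate 1 and 1 in replicate 2 for Lyzl4 and 0 counts in both for the other 7. Since a count of 0 allows up to 3 counts, levels below 0.105 CPM (replicate 1) and 0.177 CPM (replicate 2) could not be seen. The Paneth cell markers, listed because those cells are a known source of Lyz1, all had 0 counts.

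The membrane proteins were lower than most of the enzymes. Lamp1, a heavily glycosylated protein that lines the lysosomal membrane (chromosome 8, 13159161 to 13175338, plus strand), had 301 TPM in replicate 1 and 281 TPM in replicate 2. Cd68, or macrosialin, a relative of Lamp1 that is used as a marker of macrophages (chromosome 11, 69664213 to 69666153, minus strand), had 199 and 167 TPM. Their ratio was 1.52 in replicate 1 and 1.68 in replicate 2. Lamp1 shares 249 exonic bases with Grtp1 on the opposite strand, which had 3.68 and 8.54 TPM, and Cd68 shares no 31-base word with another gene.

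Between the libraries, 9 of the 10 genes passed the test as higher in replicate 1, and 0 as higher in replicate 2. The test was an exact two-sided binomial test on rounded counts given library sizes scaled by TMM, adjusted by the Benjamini-Hochberg method over the 14698 genes whose mean count reached 10. It called 30.2% of those genes higher in replicate 1 and 29.7% higher in replicate 2. With total counts in place of TMM it called 3241 genes higher in replicate 1 and 5760 higher in replicate 2, and the 10 genes' count stayed at 9 and 0. The largest adjusted p among the 9 was 8.75e-169, for Ctsl, and Lyz1 was not called (adjusted p = 0.472). As a log2 ratio, replicate 1 over replicate 2, the 10 genes had a median of 0.76 and a range of 0.47 to 1.09, and all genes tested had a median of -0.00. At or above that median lay 11.9% of the genes tested. Such a test sees counting error alone and sets library against library, not condition against condition. The spread between the replicates was a biological coefficient of variation of 0.335 over all genes, equal to an SD of 0.683 of a log2 ratio, so the members' ratios were of the size of that spread.

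Lgmn had the largest ratio at 1.09, followed by Ctsl at 0.89, Cd68 at 0.88 and Ctsz at 0.87. Next were Ctss at 0.79, Lamp1 at 0.74, Ctsb at 0.71, Lyz2 at 0.71 and Ctsd at 0.65. Lyz1 had 0.47 in the gene tables and -0.06 by the second tool, which counted 23.1 in replicate 1 and 27.4 in replicate 2, so the tools differ in its direction. The other 9 ratios were above 0 with both tools.

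The direction depends on the scale. In deposited TPM 8 of the 10 genes were higher in replicate 1, with Ctsb and Lyz1 higher in replicate 2, while the median log2 TPM ratio of all tested genes was -0.43. In rescaled TPM all 10 were higher in replicate 1, and in the second tool's TPM all 10 were lower there. The short-RNA and mitochondrial shares moved with the replicate, and so did the labelled RNA input, and their part in the difference was not tested. Fewer cells and less RNA per cell cannot be told apart in such bulk libraries.

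GC content also moved with the ratio. The median log2 ratio was -0.80 in the twentieth of genes with the lowest GC content and 0.54 in that with the highest. The 10 genes ranged from 44.7% GC for Ctsl to 57.3% for Ctsz, with a median of 49.8% beside 48.6% for all genes. Relative to genes of like GC content, a step added after the values were seen, the 10 genes' median log2 ratio was 0.67, from 0.28 for Ctsd to 1.07 for Ctsl, and all 10 were above 0. Lgmn, at 1.00, was then second to Ctsl.

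**Figure D2:**
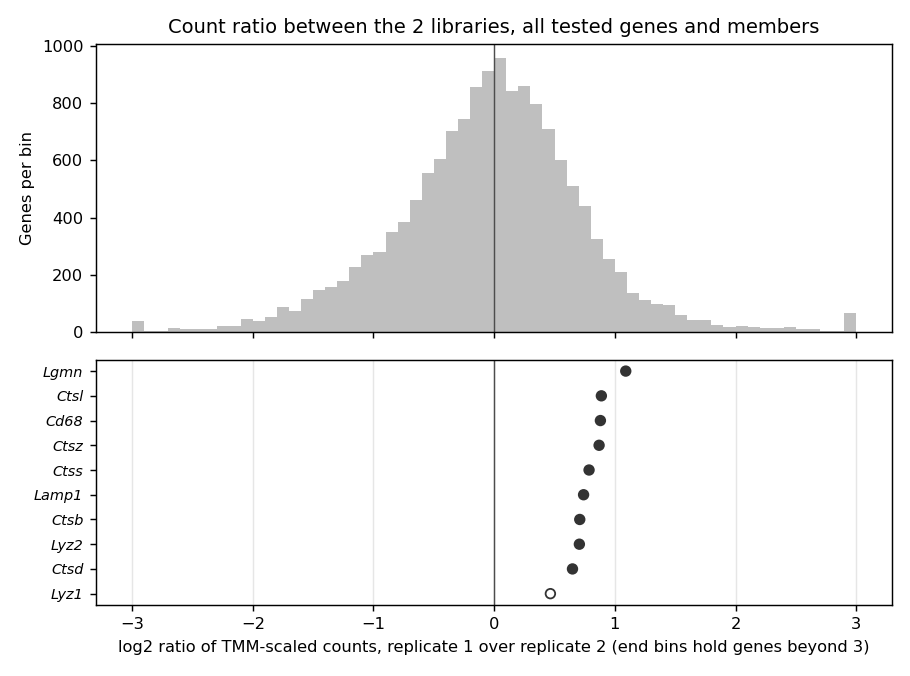
Upper panel, number of tested genes per bin of the log2 ratio of TMM-scaled counts, replicate 1 over replicate 2, with genes beyond 3 in the end bins; lower panel, the 10 genes on the same axis, filled where the exact binomial test called them and open for Lyz1. The genes lie from 0.47 to 1.09, inside the right shoulder of the distribution.

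Transcript shares showed which annotated forms carried the RNA. Lyz1, Lyz2 and Ctsz have 1 annotated transcript each. Of the other 7 genes, 4 had a single transcript at 80% or more of the gene's TPM in both libraries: Cd68-201, Lamp1-201, Ctsl-201 and Ctss-202. Cd68-201 held 99.3% in replicate 1 and 98.2% in replicate 2, and Lamp1-201 held 97.8% and 97.5%. The second tool gave 97.3% and 96.7% for both, and by that tool Cd68 and Lamp1 were the only genes that passed.

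Ctss uses splice acceptors that lie 3 bases apart. The end of exon 1 joins exon 2 at position 95529434 of chromosome 3 in Ctss-201 and at 95529437 in Ctss-202, inside the coding region. The junctions are shown because those 3 bases, in capitals, are in Ctss-201 and not in Ctss-202. At the other end Ctss-202 runs 3 bases farther, to 95556403 and not 95556400, and both transcripts are 1355 bases long. They read as follows on the plus strand, from 95526906 to 95529456 of mm10 with the intron removed.
Ctss-201: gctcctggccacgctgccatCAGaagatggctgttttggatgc
Ctss-202: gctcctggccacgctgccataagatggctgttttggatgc
Ctss-202, the form without the 3 bases, held 83.3% of the TPM in replicate 1 and 80.2% in replicate 2. Ctss-201 held 16.7% and 19.8%. The second tool gave Ctss-202 82.3% in replicate 1 and 79.5% in replicate 2, so the tools differed by less than 2 percentage points here. Both tools gave reads to both forms in both libraries.

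Ctsb had a part of its TPM on a transcript that the annotation types as retained intron. Ctsb-201, the coding form, held 81.8% in replicate 1 and 76.0% in replicate 2, and Ctsb-202, typed as retained intron, held 15.1% and 21.1%. By the second tool Ctsb-202 held 38.1% and 32.8%. Ctsb-202 is 801 bases long, and 710 of them also lie in Ctsb-201, while 90 are intron 3 bases directly before exon 4. The border is shown because only the intron side, in capitals, separates Ctsb-202 from Ctsb-201 there (chr14:63135578-63135637, plus strand, mm10).
Ctsb-202: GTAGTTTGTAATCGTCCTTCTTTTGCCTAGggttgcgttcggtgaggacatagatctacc
As a share of expected counts, which does not divide by length, Ctsb-202 held 2.84% on average. The level given to this short transcript thus depends on the tool and on the unit.

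The main transcript of Lgmn differed between the libraries, in the same direction with both tools. Lgmn-201, which starts farthest upstream, held 52.6% of the TPM in replicate 1 and 29.1% in replicate 2, and Lgmn-202 held 46.5% and 68.1%. By the second tool Lgmn-201 held 65.0% and 33.4% and Lgmn-202 32.6% and 59.5%. On scaled counts Lgmn-201 had a log2 ratio of 1.90 and Lgmn-202 of 0.49, and by the second tool 2.22 and 0.39. The whole gene, at 1.09, lay between its transcripts. Lgmn-201 has 183 bases that no other transcript of the gene holds, and Lgmn-202 has 28, so the split rests on a small part of their sequence. No test of this shift was made with 1 library on each side.

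The tools did not settle the forms of Ctsd and Ctsl. Ctsd-202 held 55.0% in replicate 1 and 75.8% in replicate 2 in the gene tables' tool, but 95.3% and 79.7% by the second tool, so the library with the higher share differed. Ctsd-201 has no base of its own beside Ctsd-202. For Ctsl-201 the shares were 88.9% and 80.8%, against 46.8% and 40.8% by the second tool. Ctsl has 7 annotated transcripts, and 28.2% of its 31-base words occur in other genes, most of them in the antisense gene Gm47123 at the same place.

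**Figure D3:**
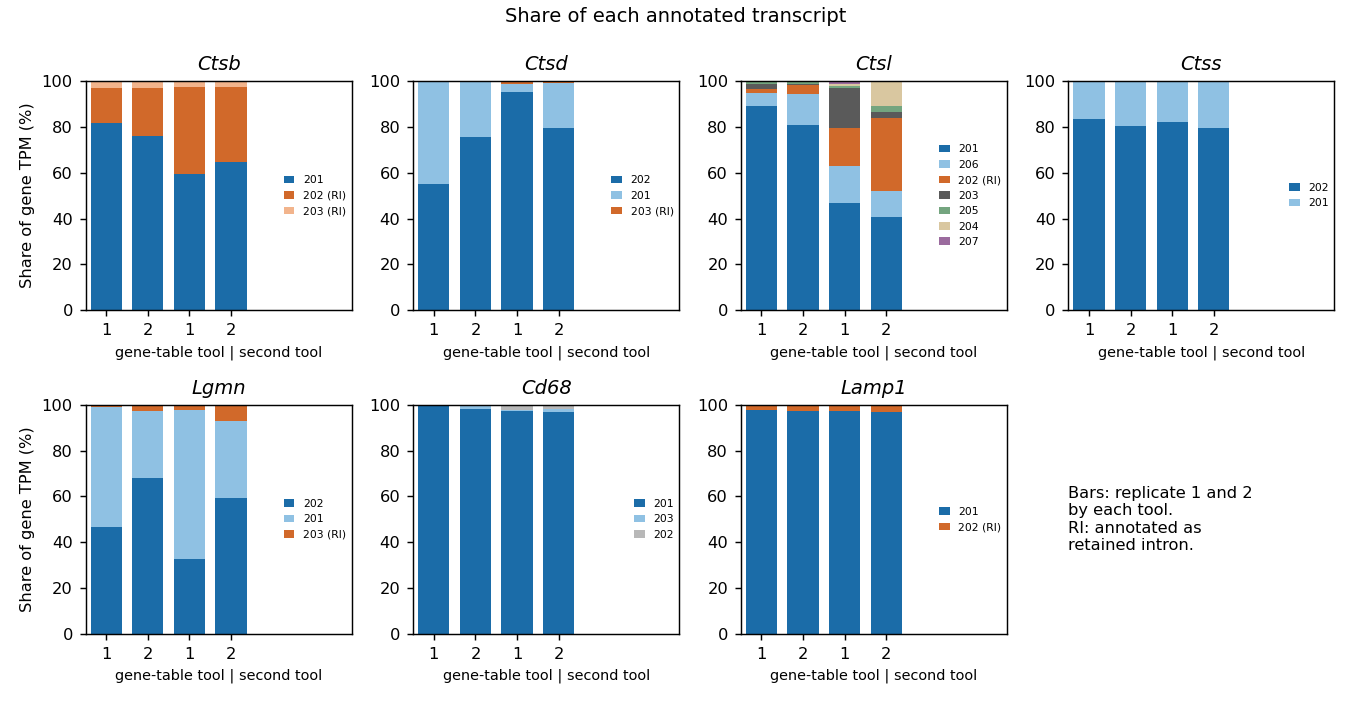
Share of each gene's TPM on each annotated transcript, in percent, for the 7 genes with more than 1 transcript; within a panel the left pair of bars is replicate 1 and 2 by the gene tables' tool and the right pair by the second tool. Orange marks transcripts typed as retained intron, which are 15.1% and 21.1% of Ctsb for Ctsb-202 in the gene tables' tool and 38.1% and 32.8% by the second tool.

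In the gene tables' tool the share of TPM on retained-intron transcripts was highest for Ctsb and low for the others, and also Ctsb lay below the median of all genes given below. Of the 10 genes, 5 have such a transcript annotated. Ctsb had 18.2% in replicate 1 and 24.0% in replicate 2, Lamp1 2.22% and 2.52%, Ctsl 1.61% and 4.19%, Lgmn 0.864% and 2.79%, and Ctsd 0.600% and 0.255%. Their median was 1.61% in replicate 1 and 2.79% in replicate 2. Over the 6946 genes that have such a transcript and a mean count of at least 10, the median was 23.6% and 29.9%. By the second tool the 5 genes' median was 2.67% and 7.15%, beside 30.5% and 35.8% over the 6946 genes. Ctsb then had 40.7% in replicate 1 and 35.4% in replicate 2, and Ctsl had 16.7% and 31.8%.

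Promoter sequence was available from RefSeq (GRCm38.p6) for 9 of the 10 genes, Ctsb excepted, with 250 bases before the annotated start. The E-box CACGTG, the core of the element that the transcription factor TFEB and its relatives bind at lysosomal genes, was searched on both strands. It occurred before the start of 4 of the 9 genes (Lamp1, Ctsd, Ctsl and a downstream start of Lgmn). Among 32817 promoters of the same length, 6.02% held it. The 9 genes had 10 promoters, with both RefSeq starts of Lgmn, so 4 of 9 counts genes while the share counts promoters. The downstream Lgmn start, at 102439092, is not that of Lgmn-202, which begins at 102423769 and whose promoter was not searched. Lamp1 held 4 copies in the last 61 bases before its start. The 80 bases before the start are shown with the E-boxes in capitals (chr8:13159081-13159160, plus strand).
Lamp1: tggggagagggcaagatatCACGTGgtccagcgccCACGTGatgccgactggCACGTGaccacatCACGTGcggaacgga
The GC box GGGCGG occurred in 5 of the 9 genes and in 32.7% of all promoters, and TATAAA in 2 of 9 and 12.4%. GAGGAA, a purine-rich word of the kind that the macrophage factor PU.1 binds, occurred in 2 of 9 and in 23.3%. None of these exact words was found before either lysozyme gene. Other words that PU.1 or its relatives may bind were not searched, so the lysozyme promoters cannot be said to lack such sites. A match describes these letters and not binding, which was not measured. The RefSeq starts of Ctsd and Ctsl lie 211 and 370 bases downstream of the GENCODE starts, those of Lgmn 85 and 721 bases and that of Lyz2 49 bases, so the windows of Ctsl and of the downstream Lgmn start lie wholly inside the GENCODE gene models, and the other 3 windows lie partly inside them. Of the 4 genes with an E-box, Lamp1 alone has a window that lies wholly before its outermost GENCODE start. For Ctsl that outermost start belongs to Ctsl-205, which held 0.54% of the TPM in replicate 1 and 1.15% in replicate 2 (gene tables' tool). Ctsl-201, with 88.9% and 80.8%, starts at 64370306, and the whole Ctsl window lies before that start.

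The lysozyme genes differ more before the start than in the coding sequence. Over the 250 bases their promoters were 80.6% identical, with 48 mismatches and 4 gapped bases, beside 95.0% for the coding sequence. A stretch of 81 bases, from 130 to 50 bases before the RefSeq start, holds 10 differences, in capitals, and is shown because Lyz2 RNA was abundant and Lyz1 was close to 0. The Lyz2 stretch lies at chr10:117282322-117282402 and the Lyz1 stretch at chr10:117292918-117292998, both minus strand, GRCm38.p6.
Lyz2: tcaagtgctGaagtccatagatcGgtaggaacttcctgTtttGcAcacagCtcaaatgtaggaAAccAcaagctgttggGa
Lyz1: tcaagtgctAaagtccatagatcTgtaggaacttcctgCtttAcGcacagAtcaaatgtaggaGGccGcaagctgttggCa
Whether any of these bases matters for either gene was not tested.

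**Figure D4:**
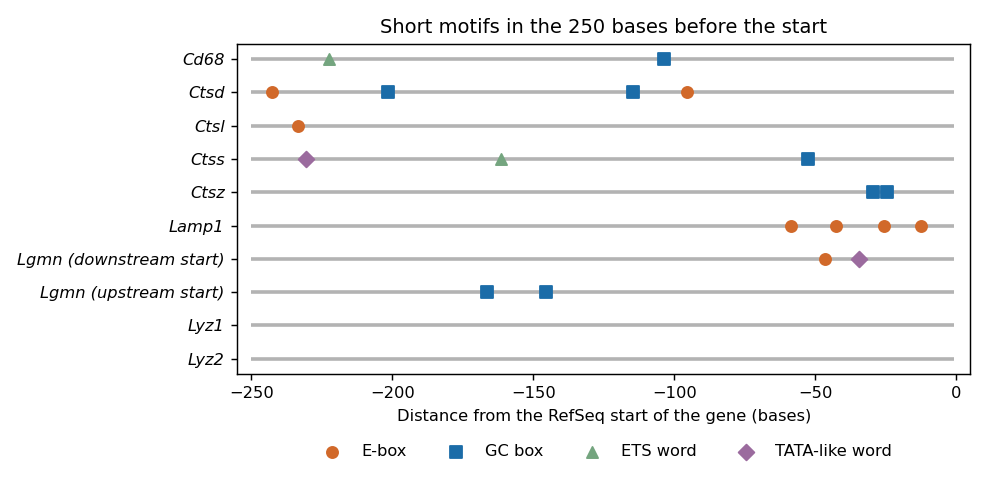
Places of 4 short motifs in the 250 bases before the RefSeq start of 9 genes, as distance in bases from the start. Lgmn is drawn for both of its RefSeq starts, neither of which is the start of Lgmn-202. Lamp1 has 4 E-boxes within 61 bases of its start. The lines of Lyz1 and Lyz2 are empty because they hold none of these exact words, and other words were not searched.

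Other genes of the lysosome were mostly at lower levels. Of 9 further cathepsins, 5 were detected in both libraries, led by Ctsc, which activates serine proteases of granules, at 287 TPM in replicate 1 and 282 TPM in replicate 2. Ctsa, a carboxypeptidase that protects other lysosomal enzymes, had 195 and 209 TPM, Ctsh, an aminopeptidase, 129 and 131 TPM, and Ctso 10.1 and 15.4 TPM. Below TPM 1 in both were Ctsw, Ctsk, Ctse and Ctsg, which includes the osteoclast protease cathepsin K and the neutrophil protease cathepsin G. The 8 cathepsins of the mouse placenta all had 0 counts. On the binomial test of TMM-scaled counts 5 of 7 tested cathepsins were higher in replicate 1 and none in replicate 2. The calls for the other lists were made in the same way, and a call can run against the TPM beside it. Each list's numbers stand beside the shares over all genes. TPM 1 in both libraries was reached by 39.6% of protein-coding genes. Of all genes tested, 30.2% were called higher in replicate 1 and 29.7% higher in replicate 2.

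Of 10 cystatin-family genes, listed as inhibitors of the cysteine cathepsins, 3 were detected in both libraries, as were 39.6% of protein-coding genes. All 3 were called higher in replicate 1 on TMM-scaled counts, as were 30.2% of all genes tested. The TPM of Cstb was nevertheless lower there. Cst3, which encodes secreted cystatin C, had 61.9 TPM in replicate 1 and 39.6 TPM in replicate 2. Cstb, which encodes the cytosolic cystatin B, had 48.4 and 53.8 TPM, and Cst7, which encodes cystatin F, had 28.1 and 25.2 TPM. The other 7 had at most 1 count in a library. Each inhibitor detected was thus below all detected proteases of the set in TPM.

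All 36 other hydrolases and activators were detected, with a median of 21.6 TPM in replicate 1 and 21.5 TPM in replicate 2. Psap, the precursor of the saposins that present lipids to hydrolases, stood above every one of the 10 genes at 3313 and 2695 TPM. The acid phosphatase Acp2 had 145 TPM in both. Hexa, a subunit of beta-hexosaminidase, had 107 and 117 TPM, and the acid lipase Lipa had 84.4 and 134 TPM. Higher in replicate 1 were 29 of the 36, and 1, the sulfatase Ids, was higher in replicate 2.

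Of 18 further lysosomal membrane and lumen transport genes 17 were detected. They were led by Gpnmb, a glycoprotein of lysosomes and melanosomes, at 1270 and 1197 TPM, followed by the peptide transporter Slc15a3 (180 and 187 TPM), Lamp2 (151 and 179 TPM), the cholesterol carrier Npc2 (184 and 135 TPM) and Laptm5 (163 and 152 TPM). Lamp3 had 1 and 0 counts. Higher in replicate 1 were 12 of 17 tested, and the ion channels Mcoln1 and Tmem175 were higher in replicate 2.

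The proton pump that acidifies the lysosome had 15 of its 16 listed genes detected, led by Atp6v0b (201 and 226 TPM), Atp6v0c (160 and 188 TPM) and Atp6ap1 (105 and 142 TPM). Atp6v0d2, with 0.92 and 2.05 TPM, was the exception. Of the pump genes 11 of 16 were higher in replicate 1 and 2, Atp6v1h and Atp6v0d2, in replicate 2. The mannose 6-phosphate receptors, which carry enzymes to the lysosome, were M6pr at 62.7 and 111 TPM and Igf2r at 18.0 and 19.8 TPM. In the sorting list 3 of 6 genes were higher in replicate 1, and M6pr was higher in replicate 2. Sort1, a sorting receptor, had 0.52 and 1.00 TPM.

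All 8 listed transcription factors of lysosomal and macrophage genes were detected. Spi1, which encodes PU.1, had 47.9 TPM in replicate 1 and 49.3 TPM in replicate 2, Irf8 26.8 and 25.8 TPM, and Tfe3 19.7 and 26.0 TPM. Tfeb had 3.87 and 4.33 TPM. Its relatives Mitf (28.6 and 52.5 TPM) and Tfec (12.1 and 27.9 TPM) were called higher in replicate 2 on TMM-scaled counts, and the other 6 were called higher in replicate 1, although the TPM of Spi1, Tfe3, Tfeb and Cebpa were lower there. The median log2 ratio was 0.62 for the other cathepsins, 0.72 for the other hydrolases, 0.49 for the membrane list and 0.25 for the proton pump, beside 0.76 for the 10 genes. With total counts in place of TMM these medians were 0.46, 0.56, 0.32 and 0.09, beside 0.60, and the calls higher in replicate 1 and in replicate 2 were 4 and 0 of the other cathepsins, 27 and 4 of the hydrolases, 8 and 4 of the pump genes, 3 and 2 of the sorting genes, and 5 and 2 of the transcription factors. The calls of the cystatins and the membrane list had the same numbers as with TMM. No test of these lists against each other was made.

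**Figure D5:**
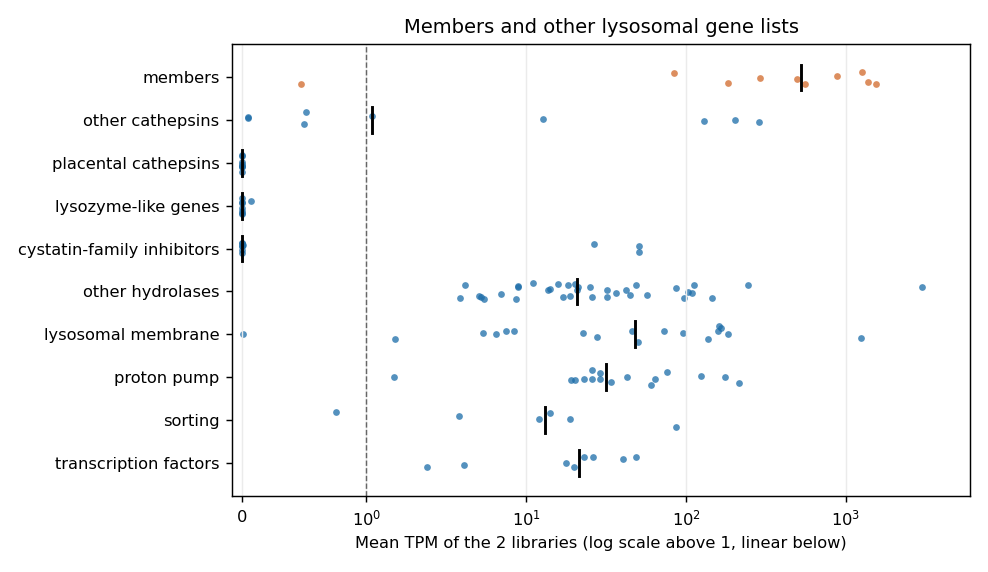
Mean TPM of the 2 libraries for the 10 genes, the top row labelled members, and for each gene of the other lysosomal lists, linear below 1 and on a log scale above; black bars mark list medians and the dashed line TPM 1. Of the 10 lists shown the 10 genes have the highest median, 524 TPM, and Psap among the other hydrolases has the highest single value, 3004 TPM. The genes and lists were chosen with earlier results of these data known, so this ranking is a description only.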

How the data were processed

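Nuclear total RNA was measured in 2 libraries of 1 condition. The deposited gene tables hold, per the file headers, expected counts (estimates that may be fractions), TPM, and posterior mean TPM with the bounds of a credibility interval. The authors' transcript tables add the percent of a gene's abundance on each transcript. Their headers match RSEM output, and those of the deposited second transcript tables, which give estimated counts and TPM, match kallisto output. Per the labels and the deposited file list, the reference was mm10 with GENCODE M21. Tools, versions, aligner and strand setting are not given in the sources used here, so reads of overlapping genes on opposite strands may be mixed. Rows that name no mouse gene held 1.79% of the counts in replicate 1 and 0.318% in replicate 2 and were left out.

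Counts were rounded to whole numbers. TMM factors and the common biological coefficient of variation (intercept-only model) came from edgeR 4.0.16 in R 4.3.3, and DESeq2 1.42.0 size factors were an alternative. Log2 ratios used a prior count of 0.5, the threshold was an adjusted p of 0.05, and the code was tested on simulated counts. Second-tool transcripts were summed per gene. Rescaled TPM leaves out short structural and mitochondrial genes. GC content was that of a gene's most abundant transcript, in 20 bins. Promoters came from RefSeq, and transcript sequences from GENCODE. Intervals and floors (3 counts) cover counting error only, since PCR copies were not marked. With the same donor label for both libraries, the spread between them may be technical. The other tools were scipy 1.17.1, numpy 2.4.6 and pandas 2.3.3 under Python 3.11.15, with matplotlib 3.10.9 for plots.

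The 10 genes, the gene lists and the tests were chosen with earlier results of these data known. All 10 genes are named. From each other list the text gives how many genes were detected and called, and names the 3 to 5 highest in mean TPM and, where 4 or fewer were below TPM 1, those too, apart from 1 gene that is not reported here. Tfeb, Cebpa, Cebpb, Ids, Mcoln1, Tmem175, Atp6v1h, Atp6v0d2, Sort1, Mrc1, Cd4, Cd3d and Ccr7 were named after their values were seen. A transcript's own bases are those in no other transcript of its gene.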

Additional observations from a re-analysis of the deposited data

How the results depend on the processing

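No paired analysis was possible because there is 1 group and its replicate numbers have no counterpart. The number of detected genes was 9 under every alternative run (second tool, TPM 10 in place of 1, posterior mean TPM, and with replicate 1 or replicate 2 left out), and in rescaled TPM all 10 passed 1. The summed level of 6659 TPM was 24386 once TPM was rescaled to leave out short and mitochondrial RNAs and 3584 by the second tool, and from 6412 to 6906 with 1 library left out. The number of genes with a transcript at 80% or more in both libraries was 4, and 2 by the second tool (4 to 5 with 1 library left out). As a share of expected counts it was 5. By the second tool Ctss-202 fell just short of the cut in replicate 2, at 79.5%. The median retained-intron share of 2.20% was 4.91% by the second tool and 0.401% as a share of expected counts, and from 1.61% to 2.79% with 1 library left out. The median log2 ratio of 0.76 ranged from 0.60 with total counts in place of TMM to 1.00 by the second tool, and was 0.67 relative to genes of like GC content, an alternative chosen after seeing the data. On scaled counts Lyz1 alone turned its direction, with -0.059 by the second tool in place of 0.47. In TPM the direction was less stable. Ctsb and Lyz1 were lower in replicate 1 in deposited TPM, and all 10 genes were lower there in the second tool's TPM. Total counts also shifted the median of all genes to -0.17 and the calls over all genes to 3241 higher in replicate 1 and 5760 higher in replicate 2. With the second tool 7314 genes were higher in replicate 1 and 7594 in replicate 2, of 23681 tested. The mean level of Ctsd was 1820 TPM with Gm49369 added, also chosen after seeing the data. Lyz1 is limited by its depth, at 23.0 and 11.0 counts.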

Other observations

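The genes nearest to Lyz2 in level were Gpnmb, the chemokine Ccl5, the MHC class I gene H2-D1, Actb and B2m. Likeness was the distance in log2(TPM + 1) over the 2 libraries, among protein-coding genes outside the set of 10, and ran from 0.051 for Gpnmb to 0.52 for B2m. Gpnmb had 1270 TPM in replicate 1 and 1197 TPM in replicate 2, beside 1300 and 1229 TPM for Lyz2. For Ctsd the nearest were Ccl5 at 0.064, H2-D1 at 0.21, Gpnmb at 0.22, Actb at 0.33 and Fth1, the ferritin heavy chain, at 0.43. With 2 libraries this is likeness of level only.

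Cebpb, a transcription factor of inflammatory genes, differed far more between the libraries than any of the 10 lysosomal genes. It had 1879 counts and 30.04 TPM in replicate 1, and 140 counts and 5.19 TPM in replicate 2, a log2 ratio of 3.16 on scaled counts. Cebpa, its relative, had 2.31 and 2.46 TPM and a ratio of 0.67. Among the macrophage markers, 7 of 8 were higher in replicate 1 on the exact binomial test, which called 30.2% of all genes tested higher there. With total counts in place of TMM 5 of 8 were. Mrc1, the mannose receptor (17.9 TPM in replicate 1 and 40.7 TPM in replicate 2), was higher in replicate 2. Of the 7, Adgre1 (537 and 749 TPM), Cd14 (167.5 and 223.9 TPM) and Csf1r (159 and 191 TPM) had lower TPM in replicate 1, and the rest had higher TPM there.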
